A study of Homo sapiens with 9 samples.

Results

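The cytosolic ribosomal protein genes of H358 cells were followed across the loss of each of the alternative ATPases of the SWI/SNF chromatin remodelling complex. They were taken as the protein-coding genes of GENCODE release 29 whose symbol is RPL or RPS with a number and an optional A, X or L, together with RPLP0, RPLP1, RPLP2 and RPSA, leaving out chromosome Y. This rule gave 81 of the 58237 genes in the files, of which 80 were among the 18205 genes with enough reads to be tested. Of the 81, 46 belong to the large (60S) subunit, 32 to the small (40S) subunit and 3 to the stalk, and they lie on 21 chromosomes. The rule used names only, and no measured value.

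H358 is an established line from a human lung carcinoma, grown in RPMI medium with 10% serum, and total RNA was sequenced from 9 libraries. Of these 3 came from parental cells, 3 from cells in which BRG1 (the product of SMARCA4) had been knocked out by CRISPR, and 3 from cells in which BRM (the product of SMARCA2) had been. All groups share the cell line and the medium, and no unrelated guide or other edited control is named. The labels do not say whether a knockout is 1 clone or a pool, or which guides were used.

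A ribosome is built from ribosomal RNA and ribosomal proteins, most of the proteins present in a single copy, and their mRNAs are among the most abundant in a growing cell. Most of these mRNAs begin with a 5′ terminal oligopyrimidine (TOP) tract, a C at the cap followed by a run of C and U, through which mTORC1 signalling and the protein LARP1 control their translation and stability. A few genes have a second copy, among them RPL39L and RPL10L, known from testis, RPL3L, known from striated muscle, and the broadly expressed RPS27L.

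The starts of 6 genes that the results return to are shown first, as 30 bases around a RefSeq start (GRCh38.p14), with the pyrimidine tract in capitals. They show what such a tract looks like at RPS27 and at 4 genes with large changes, and its absence at RPS27L. For RPL10 the window is at the only 1 of 3 listed starts that has a tract, and was chosen for it.
RPS27 (chr1:153990747-153990776, plus strand): atttccgctttcgCTCCTTTCCggcggtga
RPS27L (chr15:63157463-63157492, minus strand): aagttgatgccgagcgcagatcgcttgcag
RPL26 (chr17:8383179-8383208, minus strand): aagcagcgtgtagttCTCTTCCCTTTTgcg
RPL10 (chrX:154398362-154398391, plus strand): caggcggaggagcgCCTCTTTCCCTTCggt
RPL13A (chr19:49487593-49487622, plus strand): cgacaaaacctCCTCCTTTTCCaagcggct
RPS24 (chr10:78033848-78033877, plus strand): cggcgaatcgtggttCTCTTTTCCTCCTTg
The tract searched for was a C followed by at least 4 bases that were each C or T, beginning within 5 bases of a start, read on the gene's own strand only. It was found at 56 of the 79 starts listed for members (70.9%) and at 6902 of the 35114 starts of all genes in the table (19.7%). Counted by gene, 52 of 64 members with a listed start had it (81.2%), against 6447 of 27303 genes (23.6%).

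The libraries held 31969961 to 40679073 estimated reads. SMARCA4 was at 21.2 to 23.9 counts per 1000000 reads (CPM) in the BRG1 knockout libraries against 212 to 244 in parental ones, and SMARCA2 at 9.36 to 12 CPM in the BRM knockout against 49.3 to 58.0, as labelled. The 8 epithelial and lung markers summed to 5139 to 5303 transcripts per 1000000 (TPM, a level per transcript length) in parental cells and 4652 to 5345 in BRM knockout cells, but to 429 to 898 in BRG1 knockout cells. The 8 fibroblast markers summed to 22.3 to 45.6, 47.6 to 65.7 and 130 to 349 TPM in the same order, the 6 blood cell markers to at most 4.66 TPM and the 5 endothelial markers to at most 18.6 TPM, with 1 blood marker at 0 reads in the BRG1 knockout. The BRG1 knockout libraries were unlike one another: for ribosomal protein genes, the median standard deviation (SD) of log2 CPM was 0.524 in that group (0.275 over all genes tested), 0.137 in parental cells (0.180) and 0.0784 in BRM knockout cells (0.183). Mean fragment length, read from transcript and effective lengths, was 272.5 and 275.7 bases in BRG1 knockout replicates 1 and 2 and 302.4 bases in replicate 3, against 271.5 to 296.0 in parental and 280.5 to 294.6 in BRM knockout libraries, and its part in the results below was not tested. Ribosomal RNA genes took 0.154% to 0.220% of reads in parental, 0.357% to 0.492% in BRG1 knockout and 0.437% to 0.651% in BRM knockout libraries, all knockout libraries above all parental ones, and the part of this was not tested either.

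In parental cells 77 of the tested members were over 400 TPM, with a median of 2069 TPM and a range from 562 to 8512 TPM (15.1-fold). RPS27, a zinc-finger protein of the small subunit, had the highest mean, 8512 ± 844 TPM (SD, n = 3), and lay above the next gene in every parental library. RPL35 followed at 5806 ± 401 TPM and RPL13 at 5036 ± 852 TPM, 2 large-subunit proteins whose values did not separate beyond their spread. The copies stood far lower: RPL39L at 87.1 ± 2.75 TPM, RPS27L at 53.8 ± 5.2 TPM and RPL3L at 0.601 ± 0.370 TPM. RPL10L had 0 to 5 reads in each library and was not tested (a count of 0 allows up to 3 reads).

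As a share of all reads, ribosomal protein genes took 5.74%, 4.91% and 5.18% in parental replicates 1 to 3. The BRG1 knockout libraries gave 10.1%, 10.6% and 5.76%, so that replicates 1 and 2 were far above every other library and replicate 3 lay next to the highest parental one. The BRM knockout libraries gave 6.14%, 6.26% and 6.21%, close together and all above the parental range. Counting error (95% Wilson interval) was at most 0.0100 percentage points either way. The mean was 8.82 ± 2.67% in BRG1 knockout and 6.20 ± 0.0601% in BRM knockout cells against 5.28 ± 0.423% in parental cells (SD, n = 3), differences of 3.54 and 0.921 points. In an exact two-sided permutation test both gave p = 0.10, the smallest that 3 against 3 allows (0.150 adjusted over 3 comparisons), and BRG1 against BRM knockout gave p = 0.400.

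Per transcript length the group means came in the same order, but BRG1 knockout replicate 3 changed its place. Members made up 19.3%, 16.9% and 18.0% of the TPM in parental libraries, 30.8%, 30.8% and 21.5% in BRG1 knockout libraries, and 21.2%, 21.7% and 21.7% in BRM knockout libraries. By TPM replicate 3 of the BRG1 knockout was thus above all parental libraries and within the BRM knockout range. The mean difference from parental cells was 9.60 points in BRG1 knockout and 3.45 points in BRM knockout (exact permutation p = 0.10 for each, 0.150 adjusted). These are shares of the RNA in a library: a change in the share of cells with much of this mRNA and a change in its amount per cell cannot be told apart.

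**Figure D1:**
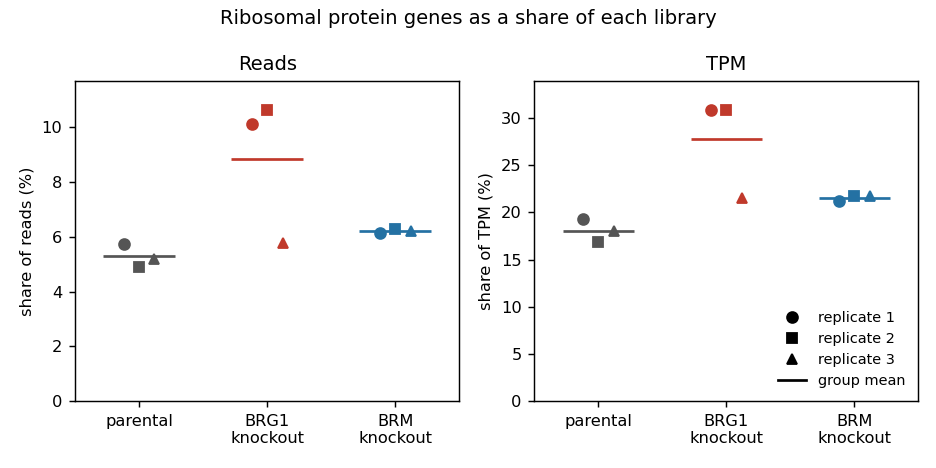
Share of reads (left, %) and of TPM (right, %) on the 81 ribosomal protein genes in each library, with the bar at the mean of 3 libraries. BRG1 knockout replicates 1 and 2 sit at 10.1% and 10.6% of reads, while replicate 3, at 5.76%, lies beside parental replicate 1, at 5.74%. By TPM replicate 3, at 21.5%, lies above the parental libraries and level with the BRM knockout ones.

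In BRG1 knockout cells 60 of the 80 tested ribosomal protein genes rose and 1, RPL39L, fell (edgeR, Benjamini-Hochberg adjusted p under 0.05 over all genes). The median log2 fold change of the 80 was 0.87, against -0.01 over all genes tested, of which 21.6% rose and 21.9% fell (43.5% in either direction). Of the 45 large-subunit members tested 36 rose (median 0.98), of the 32 small-subunit members 23 rose (median 0.84), and of the 3 stalk members 1 rose (median 0.45). In CPM 45 members had all 3 BRG1 knockout libraries above all 3 parental ones and 1 had them below, against 26.1% and 27.1% of all genes. Leaving out replicate 1 or replicate 2 of the BRG1 knockout alone gave 37 and 38 higher, in fits that called 34.9% and 40.4% of all genes.

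The size of that rise rested on replicates 1 and 2. The median member stood 1.05 and 1.19 above the parental mean on the log2 CPM scale in those libraries, and 0.21 above it in replicate 3. On the log2 TPM scale it stood 0.83, 0.79 and 0.27 above it in replicates 1 to 3. In CPM, 75 of 80 members were above all parental libraries in replicate 1 (40.2% of all genes), 78 in replicate 2 (39.8%) and 45 in replicate 3 (39.1%). Below all parental libraries in CPM were 1 (41.2% of all genes), 1 (42.6%) and 15 (40.4%). With replicates 1 and 2 left out, and replicate 3 taken to vary like the other groups, 14 members rose and 4 fell (32% of all genes were called in that fit), with a median of 0.23. With replicate 3 left out, 73 rose and 1 fell (47.3% of all genes called), with a median of 1.06. These were fits of the same kind chosen after the libraries had been seen, apart from leaving out replicate 3.

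The 14 that rose in replicate 3 alone were all among the 60: RPL4, RPL7A, RPL9, RPL10, RPL13A, RPL14, RPL15, RPL21, RPL23, RPL26, RPL32, RPS15A, RPS24 and RPS27L. RPL8, RPL39L and RPS20 were among the 4 that fell there. RPL8, a protein close to the peptidyl transferase centre, was at 4381 and 5493 TPM in BRG1 knockout replicates 1 and 2 and at 2925 TPM in replicate 3, with parental libraries at 4797, 4442 and 4927 TPM. In TPM replicate 1 was just below the parental range, replicate 2 above it and replicate 3 far below it. In CPM replicate 1, at 2224, was inside the parental range of 1940 to 2370. Over all 3 libraries the log2 fold change was -0.05 ± 0.25 (SE, edgeR adjusted p = 0.88). Among the 15 below all parental libraries in CPM in replicate 3 were also RPL39, RPL41, RPS21 and RPS26, named after their values were seen. In replicates 1 and 2 RPL39L alone was below them in CPM.

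**Figure D2:**
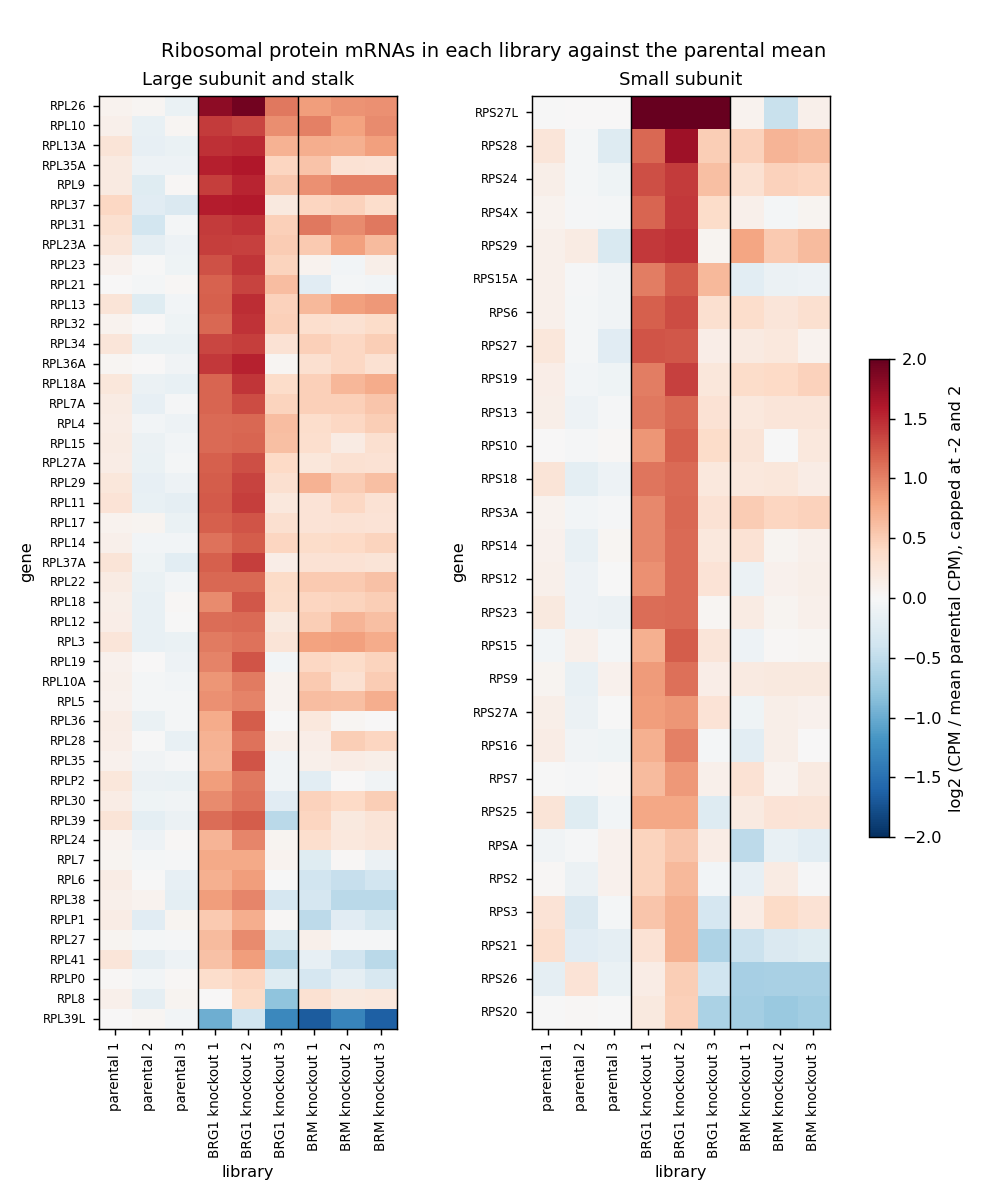
Each row is a ribosomal protein gene (75 of the 80 tested) and each column a library, coloured by the log2 ratio of its CPM to the parental mean, with colours held at -2 and 2. BRG1 knockout replicates 1 and 2 are red down nearly the whole column, replicate 3 is mixed, and RPL39L at the foot of the left panel is blue in both knockouts.

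Among large-subunit members RPL26, which lies at the mouth of the peptide exit tunnel, rose most. It was at 2499, 2519 and 2354 TPM in parental cells, at 7274, 7242 and 5572 TPM in BRG1 knockout cells, and at 4276, 4571 and 4638 TPM in BRM knockout cells. The 3 groups did not overlap, with BRM knockout in between. Its log2 fold change was 1.64 ± 0.21 (edgeR adjusted p = 1.6e-04) in BRG1 knockout and 1.07 (adjusted p = 4.1e-04) with replicates 1 and 2 left out. RPL10, among the last proteins to join the large subunit, was at 2388, 2063 and 2476 TPM in parental cells and at 5276, 4459 and 4652 TPM in BRG1 knockout cells. All 3 were above the parental range in TPM, and in CPM, the scale of the test, replicate 3 was the lowest of them at 1324 against 1836 and 1764 (parental 751, 627 and 718). The log2 fold change was 1.23 ± 0.17 (edgeR adjusted p = 2.1e-04), and 0.94 with replicate 3 alone.

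After RPL26, and just above RPL10, the largest rises in the large subunit were RPL35A (log2 fold change 1.29 ± 0.27), RPL13A (1.26 ± 0.22) and RPL37 (1.24 ± 0.33). RPL13A also acts outside the ribosome as a translational repressor. RPL37 was at 4148 and 3776 TPM in BRG1 knockout replicates 1 and 2 but at 1811 TPM in replicate 3, inside the parental range of 1338 to 2144 TPM. Its edgeR adjusted p was 0.011 over all libraries, 0.052 without replicate 1 and 0.051 without replicate 2. RPL35A lost its call only with both of those libraries left out (log2 fold change 0.44, edgeR adjusted p = 0.089), and RPL13A kept it.

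In the small subunit RPS27L had the largest change of all members. It was at 48.8, 59.2 and 53.5 TPM in parental cells, at 246, 241 and 233 TPM in BRG1 knockout cells, and at 47.7, 38.1 and 56.8 TPM in BRM knockout cells. All 3 BRG1 knockout libraries were high and in TPM near one another (in CPM they were at 94.3, 106 and 76.1, with replicate 3 the lowest), and the BRM knockout libraries overlapped the parental ones. The log2 fold change was 2.31 ± 0.19 (4.95-fold, edgeR adjusted p = 7.9e-06) in BRG1 knockout and -0.07 ± 0.18 (adjusted p = 0.78) in BRM knockout, and the direct contrast between the knockouts was 2.38 ± 0.19 (adjusted p = 4.4e-06). Its partner RPS27, far more abundant per length, was at 16412, 15074 and 11043 TPM in BRG1 knockout against 9478, 7919 and 8141 TPM in parental cells, a log2 fold change of 0.96 ± 0.27 (edgeR adjusted p = 0.013). That call was lost without BRG1 knockout replicate 1 (adjusted p = 0.071), replicate 2 (0.062) or parental replicate 3 (0.057), and the log2 fold change was 0.14 (adjusted p = 0.58) without both BRG1 knockout replicates 1 and 2.

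The coding sequences of the pair are shown because reads have to be assigned between them. They are given from the GENCODE 29 transcripts, start to stop codon, with differing bases in capitals.
RPS27: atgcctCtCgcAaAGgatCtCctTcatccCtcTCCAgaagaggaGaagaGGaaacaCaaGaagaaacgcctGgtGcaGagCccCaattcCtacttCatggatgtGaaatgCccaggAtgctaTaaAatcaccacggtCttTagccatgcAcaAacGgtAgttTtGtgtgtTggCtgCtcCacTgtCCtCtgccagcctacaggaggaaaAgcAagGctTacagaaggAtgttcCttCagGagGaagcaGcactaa
RPS27L: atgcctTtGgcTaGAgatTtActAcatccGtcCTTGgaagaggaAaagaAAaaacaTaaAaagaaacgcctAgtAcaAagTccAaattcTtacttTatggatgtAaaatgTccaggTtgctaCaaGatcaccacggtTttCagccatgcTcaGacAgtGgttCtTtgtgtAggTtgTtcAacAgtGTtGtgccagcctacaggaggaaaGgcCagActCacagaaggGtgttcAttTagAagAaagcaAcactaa
Both have 255 coding bases, of which 56 differ (78% identity), in 48 of 85 codons, and the longest run without a difference is 20 bases. A read of more than 20 bases within the coding part therefore covers at least 1 difference. The transcript RPS27L-202, which carried most of the gene's TPM, was at 34.2, 46.2 and 39.2 TPM in parental cells and at 183.2, 174.5 and 174.9 TPM in BRG1 knockout cells.

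Other leading small-subunit members were RPS28 (log2 fold change 1.19 ± 0.26), RPS24 (1.14 ± 0.20) and RPS29 (1.11 ± 0.31). RPS24, mutated in some cases of Diamond-Blackfan anaemia, was at 2076, 1947 and 1972 TPM in parental cells and at 4337, 4214 and 3394 TPM in BRG1 knockout cells. Its groups did not overlap, and it kept its call with replicates 1 and 2 left out (log2 fold change 0.61, edgeR adjusted p = 0.0095). RPS29 was at 5338 and 5310 TPM in those 2 libraries and at 2336 TPM in replicate 3, within the parental range of 2053 to 2643 TPM, and without them its log2 fold change was 0.06 (edgeR adjusted p = 0.85). The call of RPS29 was also lost without either of them alone (adjusted p = 0.074 and 0.075) or without parental replicate 3 (0.063). RPS28 likewise did not pass without them (0.51, adjusted p = 0.060).

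The stalk proteins, which bring the translation factors to the ribosome, gave 1 call. RPLP2 rose by a log2 fold change of 0.68 ± 0.25 (edgeR adjusted p = 0.045), a call that was lost on leaving out parental replicate 2 or 3, BRG1 knockout replicate 1 or 2, or any BRM knockout library. RPLP1 (0.45 ± 0.20, adjusted p = 0.084), RPLP0 (0.21 ± 0.18, adjusted p = 0.37) and RPSA, a small-subunit protein also described as a laminin receptor (0.39 ± 0.16, adjusted p = 0.076), did not pass, and without BRG1 knockout replicate 3 all of them did (edgeR adjusted p = 0.011, 0.047 and 0.031). RPS20, RPS26, RPS21, RPS2 and RPS3 of the small subunit had log2 fold changes of 0.08 to 0.38, none of which passed, and were chosen for mention after their values had been seen. RPL22, whose copy RPL22L1 is not covered by the naming rule, rose by 0.94 ± 0.20 (edgeR adjusted p = 0.0037), and RPL3 by 0.84 ± 0.22 (adjusted p = 0.0098, and 0.056 without BRG1 knockout replicate 1), while the muscle copy RPL3L had 7 to 24 reads in each library and did not pass (adjusted p = 0.79).

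RPL39L was the member that fell. It was at 84.7, 90.1 and 86.5 TPM in parental cells, at 38.3, 51.0 and 37.2 TPM in BRG1 knockout cells and at 26.8, 34.1 and 27.4 TPM in BRM knockout cells. No knockout library reached the parental range, and the log2 fold changes were -0.83 ± 0.22 (edgeR adjusted p = 0.011) in BRG1 and -1.53 ± 0.23 (adjusted p = 6.3e-04) in BRM knockout cells. Its partner RPL39 was at 3388, 2511 and 3073 TPM in parental cells, 5285, 5168 and 2387 TPM in BRG1 knockout cells and 3853, 3386 and 3677 TPM in BRM knockout cells. RPL39 was high in BRG1 knockout replicates 1 and 2 and below the parental range in replicate 3, and passed in neither knockout (0.79 ± 0.36 and 0.29 ± 0.36, edgeR adjusted p = 0.10 and 0.55).
RPL39: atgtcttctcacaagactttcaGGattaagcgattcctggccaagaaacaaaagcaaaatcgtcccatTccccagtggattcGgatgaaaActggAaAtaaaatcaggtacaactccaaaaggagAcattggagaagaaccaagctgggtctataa
RPL39L: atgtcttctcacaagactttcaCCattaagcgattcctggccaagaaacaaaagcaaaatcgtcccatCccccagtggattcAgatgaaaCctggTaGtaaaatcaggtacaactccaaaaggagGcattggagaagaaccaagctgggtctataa
These 2 coding sequences are shown because they are close: 8 of 156 bases differ (capitals, 94.9% identity), and 44 bases in a row are the same. The split between RPL39 and RPL39L depends on reads over the differing bases and the untranslated ends, so the level of RPL39L, the rarer of them, is uncertain.

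**Figure D3:**
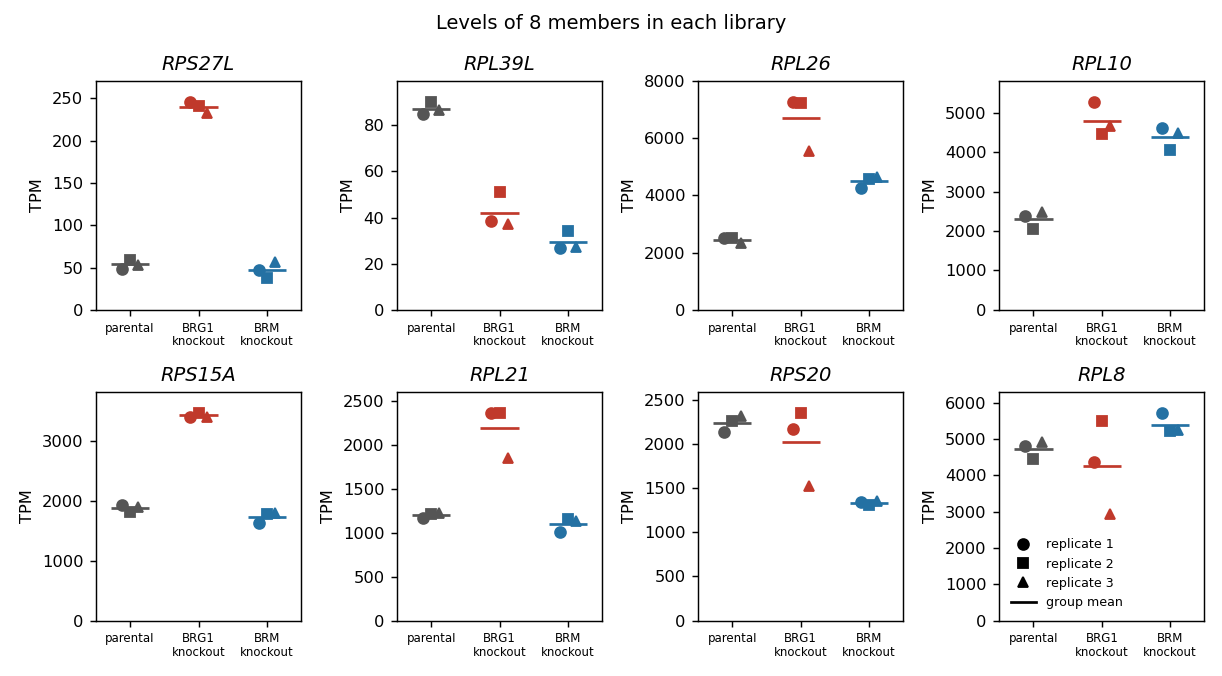
TPM in each library of 8 ribosomal protein genes, with the bar at the mean of 3 libraries and each axis starting at 0. RPS27L is at 233 to 246 TPM in all BRG1 knockout libraries, RPL39L is lower in both knockouts, and RPL8 and RPS20 have their lowest BRG1 knockout value in replicate 3.

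In BRM knockout cells, of the 80 tested members, 10 rose and 3 fell (16.2% in all, against 37.4% of all genes, 21% higher and 16.4% lower), with a median log2 fold change of 0.28 beside 0.09 over all genes. Of the 10, 9 were among the 45 large-subunit members (RPL3, RPL5, RPL9, RPL10, RPL13, RPL13A, RPL23A, RPL26 and RPL31) and 1 among the 32 of the small subunit. The 3 that fell were RPL39L, RPS20 and RPS26. In CPM 41 members had all BRM knockout libraries above all parental ones and 10 below (32.1% and 26.1% of all genes). By library 50, 48 and 49 members were above all parental ones (42.7%, 44.1% and 44% of all genes) and 19, 14 and 15 below (36%, 35.8% and 35.9%). The shared spread of the fit held the unlike BRG1 knockout libraries: a fit of the parental and BRM knockout libraries alone gave 29 higher and 9 lower with a median of 0.19, the same 13 among them, in a fit that called 48.1% of all genes, so the members' share was near the background. Leaving out parental replicate 2 gave 4 higher and 1 lower, parental replicate 3 gave 5 and 1, BRM knockout replicates 1, 2 and 3 gave 5, 7 and 6 higher with 1 lower each, and BRG1 knockout replicate 3 gave 26 and 9 (43.6% of all genes called).

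RPL31, at the rim of the exit tunnel, rose most: it was at 3244, 2003 and 2682 TPM in parental cells and at 5660, 5102 and 5484 TPM in BRM knockout cells. The groups did not overlap, and the log2 fold change was 1.02 ± 0.26 (edgeR adjusted p = 0.010, and 0.051 without parental replicate 2). RPL9 (0.98 ± 0.24, adjusted p = 0.0081), RPL10 (0.92 ± 0.17, adjusted p = 0.0019) and RPL26 (0.88 ± 0.21, adjusted p = 0.0073) followed. RPL13 (0.78 ± 0.24) and RPL3 (0.79 ± 0.22) passed as well. RPL13 lost its call without parental replicate 2 or 3, BRG1 knockout replicate 1 or any BRM knockout library, and RPL3 without parental replicate 2 or 3 or BRM knockout replicate 1.

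RPS20, a protein of the small-subunit head, and RPS26, near the mRNA exit channel, fell. RPS20 was at 2134, 2259 and 2322 TPM in parental cells and at 1342, 1311 and 1356 TPM in BRM knockout cells, a log2 fold change of -0.70 ± 0.23 (edgeR adjusted p = 0.035). RPS26 was at 1317, 1863 and 1455 TPM and at 949, 989 and 980 TPM, a change of -0.65 ± 0.22 (adjusted p = 0.034). Neither pair of groups overlapped, but both calls were lost on leaving out any one BRM knockout library (edgeR adjusted p = 0.058 to 0.093), that of RPS20 without any one parental library as well, and that of RPS26 without parental replicate 2 or 3. In the fit of parental and BRM knockout libraries alone, the stalk genes RPLP0 (-0.37) and RPLP1 (-0.45), RPSA (-0.37), RPL6 (-0.50), RPL38 (-0.55) and RPL41 (-0.44) were lower too.

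**Figure D4:**
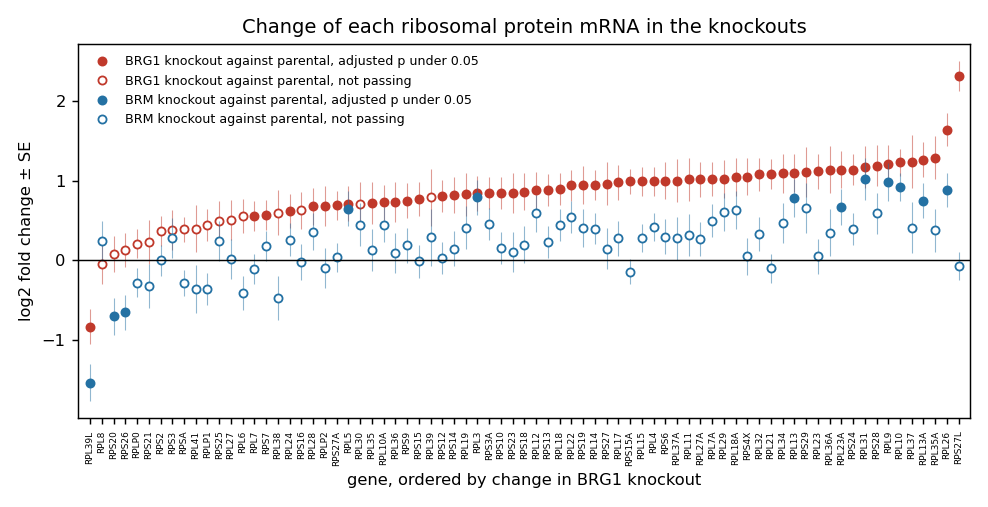
Log2 fold change from parental cells, with its approximate SE, of 75 ribosomal protein genes in BRG1 knockout (red) and BRM knockout (blue), ordered by the former, where filled points passed an adjusted p of 0.05. RPL39L lies below 0 in both, RPS27L at the right end is high in BRG1 knockout and near 0 in BRM knockout.

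Set directly against each other, 36 of 80 members were higher in BRG1 than in BRM knockout cells and 0 were lower (45%, against 45.3% of all genes, 21.6% higher and 23.8% lower), with a median log2 difference of 0.61 beside -0.00 over all genes. In CPM 25 had BRG1 knockout libraries all above BRM knockout ones and 0 below (26.5% and 28.6% of all genes). DESeq2 gave 45 higher and 0 lower, with 28.1% of the 31790 genes in that fit called. Of the small subunit 19 of 32 were higher, of the stalk 3 of 3, and of the large subunit 14 of 45. Of the stalk genes RPLP0 (edgeR adjusted p = 0.046) lost its call without any 1 library other than BRG1 knockout replicate 3 (0.057 to 0.13), in the fit of these groups alone (0.095) and without BRG1 knockout replicates 1 and 2 (0.45), and RPLP2 without BRG1 knockout replicate 1 or 2 or any BRM knockout library (0.053 to 0.092). RPLP1 lost it only without both BRG1 knockout replicates 1 and 2 (0.057). The count again followed the unlike libraries: 75 were higher with BRG1 knockout replicate 3 left out (47.8% of all genes called). It was 19 to 23 with any other single knockout library left out (34.6% to 40.1% called). With BRG1 knockout replicates 1 and 2 left out, the median was 0.03, beside 0.03 over all genes. Among others, RPL5 (-0.48), RPL8 (-0.94), RPL30 (-0.58) and RPL39 (-0.74) were then lower. RPL6 (0.50), RPL21 (0.82), RPL23 (0.51), RPS4X (0.43), RPS15A (0.89), RPS27L (2.21) and RPSA (0.53) were among those higher.

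After RPS27L, the largest differences were those of RPL21 and RPS15A, and both kept their call in every alternative run. RPS15A was at 1923, 1821 and 1893 TPM in parental cells, at 3405, 3473 and 3400 TPM in BRG1 knockout cells and at 1630, 1771 and 1794 TPM in BRM knockout cells. In TPM its 3 BRG1 knockout libraries were nearly the same and the BRM knockout ones lay just below the parental range, while in CPM the BRG1 knockout libraries were at 764, 871 and 587, with replicate 3 the lowest. RPL21 was at 1170, 1212 and 1221 TPM, at 2371, 2362 and 1855 TPM, and at 1010, 1158 and 1139 TPM. The differences between the knockouts were 1.13 ± 0.16 (edgeR adjusted p = 2.7e-04) for RPS15A and 1.18 ± 0.19 (adjusted p = 4.6e-04) for RPL21. RPL23 (1.07 ± 0.22), RPL38 (1.07 ± 0.28), RPS4X (1.00 ± 0.23), RPL6 (0.97 ± 0.21) and RPL35A (0.90 ± 0.27) were higher in BRG1 knockout as well. RPL38 and RPL35A did not pass without BRG1 knockout replicates 1 and 2 (0.24 and 0.15), and RPL35A not without BRG1 knockout replicate 1 or 2 or BRM knockout replicate 2 or 3 alone. RPL10 (0.31 ± 0.17, adjusted p = 0.15), RPL13 (0.32 ± 0.24, adjusted p = 0.30) and RPL3 (0.05 ± 0.22, adjusted p = 0.87) did not differ beyond their error.

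The members were next compared with one another. With each library centred on its own median member (log2 TPM), 69 of 79 members lay within 0.5 of their parental mean in BRG1 knockout cells and 63 of 79 in BRM knockout cells. In every BRG1 knockout library 23 of the 79 were higher and 22 lower than all parental libraries, and in every BRM knockout library 23 and 27. In CPM, without centring, 26.1% of all genes were higher in this way and 27.1% lower in BRG1 knockout. For BRM knockout these shares were 32.1% and 26.1%. No share of all genes was counted on the centred scale. On this scale RPL26 was 0.80 higher in BRG1 knockout and 0.62 higher in BRM knockout, RPL13 0.28 and 0.58 higher, and RPS26 0.69 and 0.90 lower, without overlap of the groups. RPS27L was 1.53 higher in BRG1 knockout, and RPL39L 1.69 and 1.82 lower. The large-subunit and stalk members together made up 58.3%, 57.7% and 57.7% of member TPM in parental libraries, 60.6%, 60.2% and 59.3% in BRG1 knockout and 62.3%, 61.9% and 62.2% in BRM knockout libraries, so both knockouts were above the parental range. A centred value cannot show whether a gene itself changed or the others did.

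The rises in BRG1 knockout cells were counted by tract. Of 52 tested members with a tract at a listed start 42 rose (median log2 fold change 0.85), and of 11 without one 8 rose (median 0.99). Across 80 members the Spearman correlation of the log2 fold change with mean effective length was -0.14 in BRG1 knockout and 0.04 in BRM knockout (-0.17, -0.23 and 0.13 in BRG1 knockout replicates 1 to 3, and -0.26 for BRG1 against BRM knockout), described here without a test because genes share their libraries. By chromosome the lowest medians among those with 3 or more members were 0.31 for the 4 on chromosome 12 and 0.32 for the 4 on chromosome 8. All tested genes there had medians of -0.21 and -0.41. On chromosomes 4 and 11 the medians were -0.21 and -0.27 over all tested genes, and 1.09 and 0.68 over 3 and 5 members. The part of the chromosome in these changes was not tested. Reads on the 1132 annotated pseudogenes of 76 members were 0.0486% to 0.0790% of a library, and adding them to the parent genes gave 61 higher and 1 lower in BRG1 knockout cells.

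Other genes of translation were counted from lists, to be read beside 21.6% higher and 21.9% lower of all genes in BRG1 knockout and 21% and 16.4% in BRM knockout. Of 6 ribosomal protein genes that the naming rule leaves out, 1 rose in BRG1 knockout, RPL22L1 (log2 fold change 1.16 ± 0.24, edgeR adjusted p = 0.0026), the copy of RPL22, at 30.0, 35.3 and 41.4 TPM in parental and 68.4, 82.3 and 60.9 TPM in BRG1 knockout cells. In BRM knockout 0 rose and 2 fell, RPL26L1 (-0.91 ± 0.21) and RPL7L1 (-0.42 ± 0.13). Of 8 other mRNAs known for a TOP tract 5 rose and 1 fell in BRG1 knockout, against 1 and 2 in BRM knockout, and TPT1, one of the classic TOP mRNAs, rose in both (1.24 ± 0.20 and 0.70 ± 0.20). With BRG1 knockout replicates 1 and 2 left out, the median of the 8 in BRG1 knockout was 0.09, in place of 0.56. The log2 fold change of RPL22L1 was then 0.60, in place of 1.16. Of 11 host genes of small nucleolar RNAs with TOP starts 4 rose and 0 fell in each knockout, EPB41L4A-AS1 the most (1.70 ± 0.27 and 1.30 ± 0.26). Their medians were 0.51 in BRG1 and 0.58 in BRM knockout. Without BRG1 knockout replicates 1 and 2 the medians were -0.29 and 0.49, and without BRG1 knockout replicate 3 they were 0.72 and 0.48.

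Translation elongation factors split by gene. Of 8, 4 rose and 1 fell in BRG1 knockout and 3 rose and 2 fell in BRM knockout. The median in BRG1 knockout was 0.41, and 0.36 without replicates 1 and 2. EEF2, the translocase, rose in both (0.91 ± 0.17 and 0.68 ± 0.17), and EEF1A2, a tissue-restricted form of the factor that delivers aminoacyl-tRNA, fell by 2.00 ± 0.17 on the log2 scale in BRG1 knockout (edgeR adjusted p = 9.5e-06). Of 33 initiation factors 6 rose and 3 fell in BRG1 knockout (median -0.03) and 4 rose and 10 fell in BRM knockout (median -0.27). Without BRG1 knockout replicate 3 the counts were 6 and 6, and 4 and 15, with 47.3% and 43.6% of all genes called. Without BRG1 knockout replicates 1 and 2 the medians were -0.15 and -0.36. In BRM knockout EIF2B1 (-1.12 ± 0.16) and EIF2B2 (-1.03 ± 0.14), subunits of the exchange factor of eIF2, fell most.

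Genes that build ribosomes were counted in 3 lists. Of 63 ribosome biogenesis genes 3 rose and 19 fell in BRG1 knockout (median -0.20) and 2 rose and 33 fell in BRM knockout (median -0.51). Without BRG1 knockout replicates 1 and 2 these medians were -0.21 and -0.60. RRS1, needed for assembly of the large subunit, and FTSJ3, a factor in processing of ribosomal RNA, fell in BRM knockout. The falls were 1.68 ± 0.18 and 1.67 ± 0.19 on the log2 scale. Of 15 genes of RNA polymerase I and its factors 2 rose and 2 fell in BRG1 knockout and 1 rose and 5 fell in BRM knockout, and POLR1B, its second-largest subunit, fell in BRG1 knockout (-1.06 ± 0.13). Of 7 dedicated chaperones of ribosomal proteins 2 rose and 1 fell, and 1 rose and 3 fell, in the same order. Of 77 mitochondrial ribosomal protein genes, a list added after the data had been seen, 7 rose and 10 fell in BRG1 knockout and 2 rose and 18 fell in BRM knockout. Their medians were -0.06 and -0.29, and without BRG1 knockout replicates 1 and 2 they were -0.33 and -0.38.

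Among 29 genes of mTORC1 and its TOP mRNA regulators 6 rose and 3 fell in BRG1 knockout and 8 rose and 5 fell in BRM knockout. DDIT4, an inhibitor of mTORC1, rose by 2.31 ± 0.21 in BRG1 knockout, from 25, 35.7 and 38.1 TPM to 139, 148 and 144 TPM. Of 10 tested genes of the MYC network 3 rose and 2 fell in BRG1 knockout and 5 rose and 1 fell in BRM knockout, and MXD4, a MAX partner that opposes MYC, rose in both (3.02 ± 0.23 and 2.56 ± 0.22). Of 13 ribosome quality control genes 4 rose and 3 fell, and 2 rose and 0 fell. Of 18 cell division genes 0 rose and 6 fell in BRG1 knockout (median -1.12). In the fit of BRG1 knockout and parental libraries alone 13 fell (40.4% of all genes called). Without BRG1 knockout replicate 3, 7 fell (47.3% called), with a median of -1.37, and without replicates 1 and 2 the median was -0.79. In BRM knockout 0 rose and all 18 fell (median -2.71), beside which the ribosomal protein share in BRM knockout was 6.14% to 6.26% of reads. Of the tested marker genes, 5 of 7 epithelial and lung markers fell and 0 rose in BRG1 knockout, 4 of 6 fibroblast markers rose and 0 fell, 1 of 4 blood cell markers fell and 0 of 5 endothelial markers passed. In BRM knockout 2, 1, 0 and 2 of these rose and 0, 1, 0 and 0 fell. Their part in the change of the ribosomal protein genes was not tested.

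**Figure D5:**
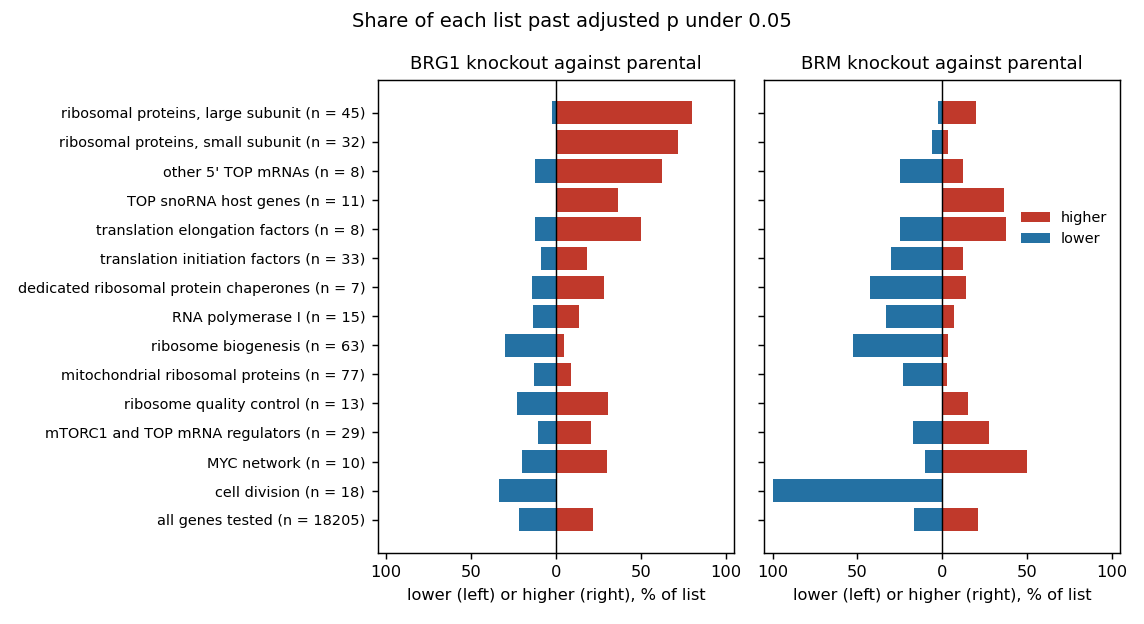
Share (%) of each list that passed an adjusted p of 0.05, higher to the right in red and lower to the left in blue, in BRG1 knockout (left panel) and BRM knockout (right panel), with n the genes tested. The large-subunit bar at the top extends to 80% higher in BRG1 knockout, ribosome biogenesis genes extend to the lower side in both, and all genes tested are at the foot.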

How the data were processed

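Each deposited file holds estimated counts per transcript for 1 library and the matching TPM, both made by the authors with Salmon, per the headers of the files and per the submitters' processing notes, which also name DESeq2 and hg38. No source used here gives versions, strand or bias settings. Estimated counts and TPM were summed per GENCODE 29 gene. Of 203835 transcripts, 89 without a gene (up to 0.0193% of the reads in any library) were left out. Estimated counts, rounded to whole numbers, were tested with edgeR 4.0.16 (R 4.3.3): filterByExpr, TMM, glmQLFit (robust) and glmQLFTest, two-sided, with 1 mean per group over 9 libraries and 6 residual degrees of freedom, and Benjamini-Hochberg adjustment over 18205 genes. On simulated data the fit recovered 57 of 100 genes changed 2-fold and 98 of 100 changed 4-fold, with 9 wrong calls. A gene that did not pass may therefore still have changed. The SE is approximate, from the log2 fold change and its F statistic. DESeq2 1.42.0, other scalings, filters and subsets of libraries were alternatives. CPM is TMM-scaled.

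The labels number the replicates without saying that they came from separate cultures, so a p-value here reflects the spread of these samples alone, and that spread may be technical. No pair of libraries within a group agreed within sampling noise. The members, lists and tests were chosen with earlier results of these data known. Named members are, per subunit, the 5 called that rose most and the 3 that fell most, members called against the majority, the stalk genes and RPSA, members with a second copy and their copies, the 3 most and least abundant, and up to 3 called genes of each list with a mean of 10 CPM or more. Other members named were chosen after their values were seen. Shares were compared with exact permutation tests. Promoter windows are RefSeq sequences and coding sequences are GENCODE 29 transcripts. Some members are counted but not reported by name here, and are left out of the figures of single genes, as is RPL3L.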

Additional observations from a re-analysis of the deposited data

Results flagged for a closer look

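For 3 members the change in BRG1 knockout cells differed from that in BRM knockout cells by the direct contrast of the knockouts (edgeR), at an adjusted p under 0.001, a stricter limit than the 0.05 passed by 36. RPS27L differed by 2.38 (adjusted p = 4.4e-06), with 233 to 246 TPM in the BRG1 knockout libraries and 38.1 to 56.8 TPM in the BRM knockout ones. RPL21 differed by 1.18 (adjusted p = 4.6e-04) and RPS15A by 1.13 (adjusted p = 2.7e-04). For each of the 3, all BRG1 knockout libraries were above all BRM knockout libraries in TPM.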

How the results depend on the processing

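The members' median stayed above 0 in all 3 comparisons under every setting run. For BRG1 knockout against parental, leaving out 1 library at a time gave 37 to 73 members higher and 1 lower, medians 0.63 to 1.06, and without BRG1 knockout replicates 1 and 2 it gave 14 higher, 4 lower and 0.23. For BRM knockout against parental, leaving out 1 library gave 4 to 26 higher and 1 to 9 lower (24.2% to 43.6% of all genes called). The members' median was then 0.16 to 0.36. That median was 0.19 with TMM computed without members and 0.18 with no filter on low counts, where the median of all genes was 0.01 and 0.00 in place of 0.09. For the shares of reads, leaving out 1 library gave differences of 2.63 to 5.08, 0.737 to 1.15 and 1.71 to 4.15 points in the 3 comparisons, and for the shares of TPM 8.04 to 12.7, 2.88 to 4.06 and 4.59 to 9.25. The BRM knockout and parental groups alone gave 29 higher, 9 lower and 0.19, leaving out BRG1 knockout replicates 1 and 2 gave 28, 9 and 0.19, and leaving out parental replicate 1 and BRG1 knockout replicate 3 gave 30 and 7. For BRG1 against BRM knockout, leaving out 1 library gave 19 to 75 higher and 0 lower, medians 0.41 to 0.88. Leaving out BRG1 knockout replicates 1 and 2 gave 7 higher, 5 lower and 0.03, the same as the median of all genes (0.03). A smaller share of members than of all genes was called in that fit, which held 1 BRG1 knockout library. Leaving out parental replicate 1 and BRG1 knockout replicate 3 gave 78 higher (50.4% of all genes called). Without BRG1 knockout replicates 1 and 2 the log2 fold change had the opposite sign for 17 members against parental, of which 3 had been called (RPL19, RPL35 at -0.06 and RPLP2 at -0.05, none of them called then), and for 34 against BRM knockout, of which 0 had been called. RPL39 was called lower there (-0.74). The replicate numbers did not pair the libraries (correlations of same-numbered deviations from -0.08 to 0.17). With them as a block 54, 10 and 33 members were higher and 1, 3 and 0 lower in the 3 comparisons. Those fits called 41.1%, 35.1% and 42.9% of all genes. Of the settings for single named genes, 3676 left the call as it was, 246 lost it and 35 gained it. In 3 more (RPL35, RPLP2 and RPL39 above) the sign turned and the gene was called in the main or the alternative fit. A sign that turned where neither fit called the gene was counted among the 3676. RPLP0 against parental was such a case, at 0.21 in the main fit and -0.22 without BRG1 knockout replicates 1 and 2. The cause was not tested. At 31969961 reads or more per library depth limits only RPL3L and RPL10L.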
